A study of Mus musculus with 6 samples.

Results

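The alpha and beta tubulin genes described are 10 of the 17463 genes in the count table, 5 alpha (Tuba1a, Tuba1b, Tuba1c, Tuba4a, Tuba8) and 5 beta (Tubb2a, Tubb3, Tubb4b, Tubb5, Tubb6). They are found by gene symbol and were chosen on earlier CH against Ctrl values of these same samples, so their treatment values are given as a description and support no test. All 10 passed the filter on low counts. RNA-seq was made of erythroblasts from the fetal liver of mid-gestation C57BL/6J mice. Cells that did not yet carry TER119, an erythroid maturation marker on the cell surface, grew in Epo (erythropoietin) medium for 30 h before the TER119+ cells were sorted. The 3 CH samples received 40 µM cholesterol and the 3 control samples (Ctrl) did not, with the controls called untreated in the sample labels and vehicle in a figure legend of the study. Samples are numbered 1 to 3 in each group. The legend with the RNA-seq gives its means ± SD as those of independent experiments, but the labels do not say what a number stands for, so p-values measure the spread between these samples, which may in part be technical.

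Alpha and beta tubulins pair into the heterodimers from which microtubules are built, and a dividing cell needs them for the mitotic spindle. Each class is encoded by several genes, called isotypes, whose proteins differ mainly in their acidic tails. Cells hold tubulin mRNA in balance with free tubulin: when free dimers accumulate, the factor TTC5 recognises nascent tubulin on the ribosome and the mRNA is degraded. A dividing erythroblast builds spindles until it leaves the cell cycle and expels its nucleus.

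Each sample held between 19826849 and 20061724 counts in all. All 11 measured erythroid markers were above 1 CPM, where CPM is the count scaled by TMM to library size, and summed to between 73772 and 108429 CPM. Values moved with the sample number over much of the transcriptome: edgeR's quasi-likelihood test called 46.3% of the 11277 genes tested between the 3 numbers at an adjusted p under 0.05. Samples numbered 1 and 3 deviated from their group means together with their counterparts. The deviations of CH 2 correlated as closely with those of Ctrl 1 as with those of Ctrl 2 (0.35). Treatment values are therefore given for condition alone and, beside them, for a model that blocks on the number.

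RefSeq promoter windows (build GRCm38.p6) were matched for 9 of the 10 members. The 250 bases before each annotated start site were searched on both strands for CCAAT, the element bound by NF-Y, and for TTTGAA or TTTAAA, the core of the cell cycle homology region that cell cycle genes carry. The upstream sequences of 5 members are shown because these hold most of the tubulin mRNA or passed the blocked test below. They run 5′ to 3′ on the gene's strand and end at the base before the start site, and capitals mark the CCAAT motif, which reads ATTGG when it lies on the other strand, and the motif of the cell cycle homology region.
Tubb4b chr2:25224703-25224952 (-): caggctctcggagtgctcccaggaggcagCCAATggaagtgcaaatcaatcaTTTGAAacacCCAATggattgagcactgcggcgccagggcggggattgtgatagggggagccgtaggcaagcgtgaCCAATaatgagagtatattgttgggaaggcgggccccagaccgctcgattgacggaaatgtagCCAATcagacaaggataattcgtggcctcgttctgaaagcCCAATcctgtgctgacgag
Tubb5 chr17:35838302-35838551 (-): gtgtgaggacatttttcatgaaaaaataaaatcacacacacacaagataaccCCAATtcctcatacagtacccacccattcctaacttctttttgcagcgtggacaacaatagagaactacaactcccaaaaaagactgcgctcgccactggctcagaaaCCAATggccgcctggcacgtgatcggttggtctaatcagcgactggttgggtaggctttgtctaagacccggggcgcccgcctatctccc
Tuba1c chr15:99029731-99029890 (+): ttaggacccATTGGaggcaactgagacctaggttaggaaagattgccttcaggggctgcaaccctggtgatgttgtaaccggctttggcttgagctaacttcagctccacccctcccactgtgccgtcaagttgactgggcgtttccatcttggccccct
Tuba4a chr1:75219295-75219414 (-): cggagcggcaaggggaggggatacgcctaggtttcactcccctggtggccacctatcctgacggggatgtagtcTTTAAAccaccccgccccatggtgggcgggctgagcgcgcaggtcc
Tuba1b chr15:98934391-98934510 (-): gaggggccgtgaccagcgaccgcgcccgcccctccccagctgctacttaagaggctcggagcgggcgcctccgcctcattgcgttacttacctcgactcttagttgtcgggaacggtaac

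The Tubb4b window held 5 CCAAT motifs, at positions -221, -188, -122, -59 and -19 from the start site, and TTTGAA at -198. Among 32851 mouse promoter windows, 33.8% held at least 1 CCAAT and 0.213% held 5 or more. Tubb5 held 2, at -198 and -90, and 10.1% of all windows held 2 or more. Tuba1c held 1, reversed, at -151. The Tuba4a window held TTTAAA at -46 and no CCAAT, and its start site lies inside the RefSeq span of the gene. The Tuba1b window held neither motif. CCAAT was found in 5 of 9 member windows and TTTGAA or TTTAAA in 2 of 9, the latter against 25.2% of all windows. The GC box GGGCGG was found in 6 of 9 (32.7% of all windows), the erythroid GATA motif AGATAA in 1 of 9, that of Tubb5 (9.99%), and TATAAA in 1 of 9, that of Tubb2a (12.4%). The sterol response element TCACCCCAC, a form bound by SREBP, was in 0 of 9 and in 0.496% of all windows. A match is only a match of letters.

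Tuba1b, Tuba1a and Tuba1c lie near each other on chromosome 15, at 98931429 to 98934390, 98949847 to 98953501 and 99029891 to 99038105 (build GRCm38.p6, RefSeq gene spans). The other members are scattered, with Tuba4a on chromosome 1 (75214972 to 75221261), Tubb4b on chromosome 2 (25222158 to 25224702), Tuba8 on chromosome 6, Tubb3 on chromosome 8, Tubb2a on chromosome 13 (34074278 to 34078008), Tubb5 on chromosome 17 (35833920 to 35838301) and Tubb6 on chromosome 18.

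Erythroblast tubulin mRNA came mostly from a few isotypes. On the FPKM scale, which divides by transcript length and depth and so allows genes to be compared, Tuba1b was the highest, with a mean of 1910 over the 6 samples. Tubb4b (990 FPKM) and Tubb5 (814 FPKM), the broadly expressed beta isotypes of dividing cells, came next, and Tubb4b was above Tubb5 in each sample. Tuba4a had 516 FPKM, Tuba1c 302 FPKM and Tubb2a 101 FPKM, and the ranges over the 6 samples did not overlap between neighbours in this order. The other 4 members were low, with mean levels of 3.31 FPKM for Tuba1a, 1.31 FPKM for Tubb6, 0.683 FPKM for Tubb3 and 0.628 FPKM for Tuba8. Tuba1a was the highest of these in each sample, while the ranges of Tubb6, Tubb3 and Tuba8 overlapped and their order is not resolved.

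**Figure D1:**
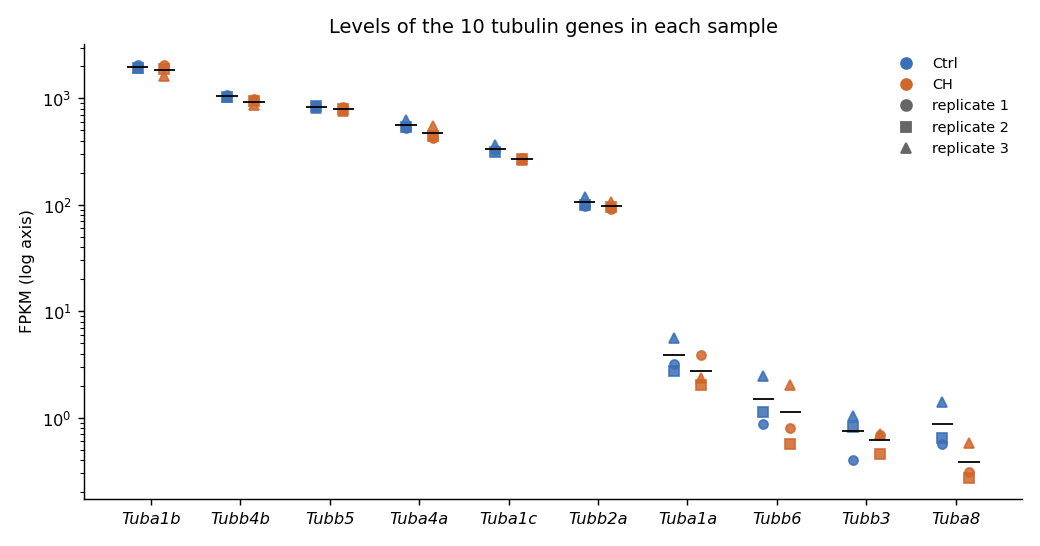
FPKM (log axis) of the 10 tubulin genes in each of the 6 samples. Points are samples, with shape giving the replicate number, and black lines are means of 3 samples. The 6 highest genes lie near or above 100 FPKM and 4 lie below 10 FPKM.

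Within the alpha class, Tuba1b made up 68.7% ± 2.54 of the summed FPKM in Ctrl and 71.2% ± 3.96 in CH (SD, n = 3). Tuba4a made up 19.5% ± 1.74 and 18.3% ± 3.62, and Tuba1c 11.6% ± 0.758 and 10.4% ± 0.355. The Tuba1c share was 11.2%, 11.3% and 12.5% in Ctrl 1 to 3 and 10.04%, 10.4% and 10.7% in CH 1 to 3, without overlap. Within the beta class, Tubb4b held 53.2%, 52.1% and 52.5% of the summed FPKM in Ctrl and 51.8%, 51.5% and 50.0% in CH. Tubb5 held 41.9%, 42.8% and 41.2% in Ctrl and 43.3%, 43.2% and 43.8% in CH. Neither beta share overlapped between the groups, with Tubb4b lower and Tubb5 higher in CH. These genes hold most of the beta class, so a lower Tubb4b share goes with a higher Tubb5 share. The mean FPKM of both was lower in CH, the contrast on which the members were chosen. The ratio of summed alpha to summed beta FPKM lay between 1.41 and 1.48 in Ctrl and between 1.398 and 1.45 in CH.

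All 6 main isotypes had estimates below 0 in CH with the block. Tuba1c, Tuba4a and Tubb4b passed the threshold there, where 5.2% of all genes were called lower. None passed with condition alone, where 0% were called lower. The members were chosen on this contrast, so nothing is read from these calls. Tuba1c had 664, 615 and 755 CPM in Ctrl 1 to 3 and 541, 526 and 532 CPM in CH 1 to 3. Every CH sample was below every Ctrl sample, and the mean of CH stood at -21.4% against that of Ctrl (678 ± 70.8 against 533 ± 7.55 CPM, SD, n = 3). The fitted log2 fold change was -0.35 with a standard error of 0.09, with an adjusted p of 0.9998 in edgeR's quasi-likelihood test for condition alone and of 0.000586 with the block.

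Tuba4a encodes an alpha tubulin that lacks the last tyrosine of most others and is abundant in platelets. It had 1141, 1125 and 1378 CPM in Ctrl and 898, 924 and 1190 CPM in CH. The groups overlapped, with number 3 high in both, and CH was below Ctrl in each of the 3 same-numbered pairs, with log2 differences of -0.35, -0.28 and -0.21. The fitted log2 fold change was -0.28 for condition alone (standard error 0.14, edgeR adjusted p of 0.9998) and -0.28 with the block (standard error 0.04, edgeR adjusted p of 0.000168). With condition alone it was -0.17 without Ctrl 3.

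Tubb4b had 1773, 1624 and 1719 CPM in Ctrl and 1556, 1496 and 1427 CPM in CH. The groups did not overlap and the mean difference was -12.5%. The fitted log2 fold change was -0.19 (standard error 0.07, adjusted p of 0.9998 in edgeR's quasi-likelihood test), and the adjusted p with the block was 0.00572. Tubb5, the other main beta isotype, had 2326, 2225 and 2251 CPM in Ctrl and 2170, 2095 and 2087 CPM in CH. These CPM did not overlap either, but the difference was small, at -6.63%. It missed the threshold with the block (log2 fold change -0.10, edgeR adjusted p of 0.133). On the FPKM scale the Tubb5 groups overlapped, with 852, 842 and 805 in Ctrl and 825, 795 and 765 in CH.

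Tuba1b, the highest alpha isotype, had 3363, 3023 and 3167 CPM in Ctrl and 3192, 2932 and 2636 CPM in CH. CH was lower in each pair, while the groups overlapped. The log2 fold change was -0.13 (standard error 0.09) and the edgeR adjusted p with the block was 0.0989. The estimate was -0.05 without CH 3, -0.08 without Ctrl 1 and -0.19 without CH 1. Tubb2a, a beta isotype known best from neurons, had 161, 159 and 200 CPM in Ctrl and 144, 151 and 173 CPM in CH. It was lower in CH in each pair, with overlapping groups, a log2 fold change of -0.15 and an edgeR adjusted p with the block of 0.0560. Without Ctrl 3 that log2 fold change was -0.03, without CH 1 -0.09 and without CH 3 -0.23.

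**Figure D2:**
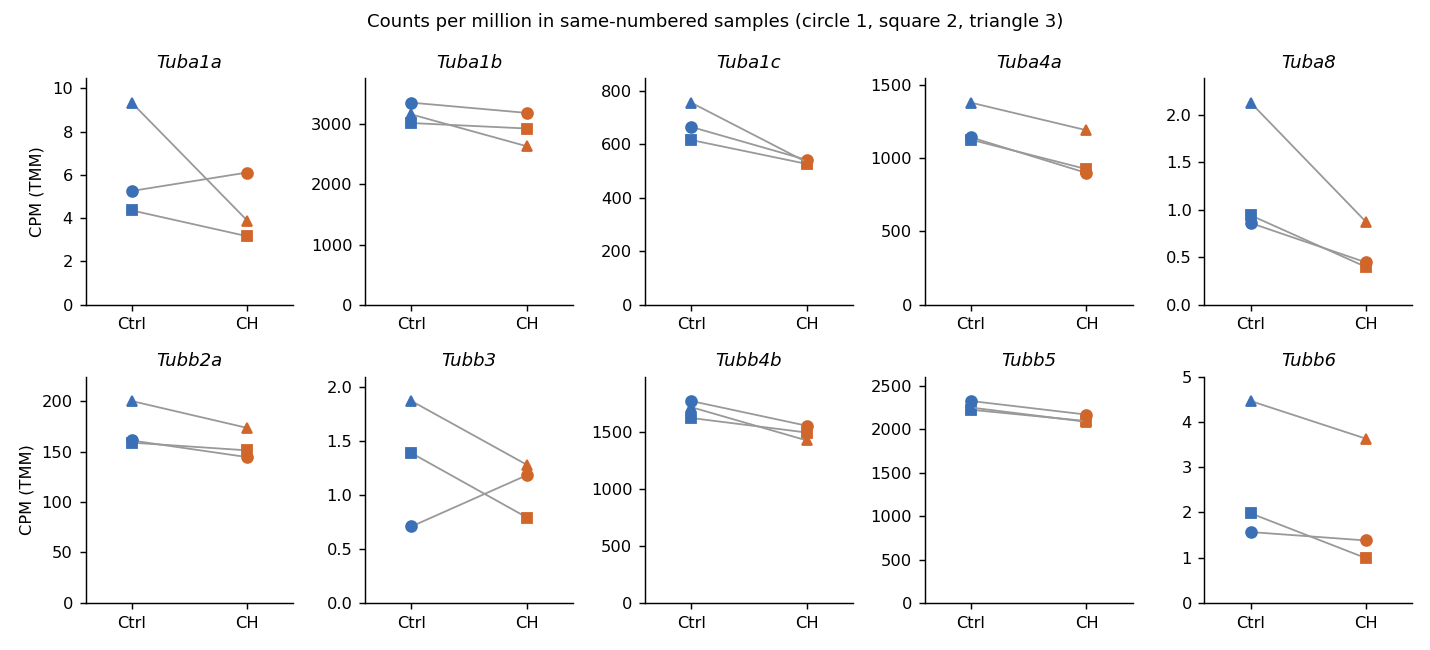
CPM of each tubulin gene in Ctrl and CH, with grey lines joining samples of the same replicate number (axes from 0). Of the 10 genes 8 have 3 lines that fall from Ctrl to CH, and in Tuba1a and Tubb3 the line of number 1 rises.

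The 4 low members had few counts and wide errors. Tuba8 was counted 17, 19 and 41.1 times in Ctrl and 9, 8 and 17 times in CH. It was lower in CH in each pair, with a log2 fold change of -1.19, a standard error of 0.52 and an edgeR adjusted p with the block of 0.0501. Without Ctrl 3 the log2 fold change was -0.66. Tuba1a, an isotype typical of developing neurons, had 5.26, 4.36 and 9.34 CPM in Ctrl and 6.11, 3.16 and 3.88 CPM in CH. The highest value was that of Ctrl 3 and the groups overlapped (log2 fold change -0.53, standard error 0.38). It was -0.13 without Ctrl 3, -0.34 without CH 2 and -0.84 without CH 1.

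Tubb6 had 1.57, 1.98 and 4.46 CPM in Ctrl and 1.38, 0.988 and 3.63 CPM in CH, high in number 3 of both groups. Tubb3, the beta isotype used to mark neurons, had 0.708, 1.39 and 1.87 CPM in Ctrl and 1.18, 0.790 and 1.28 CPM in CH. Their log2 fold changes of -0.42 and -0.28 were smaller than their standard errors of 0.62 and 0.43, and without Ctrl 3 they were 0.17 and 0.05. Neuron markers summed to at most 0.296 CPM, with Nefl at 0 in every sample.

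**Figure D3:**
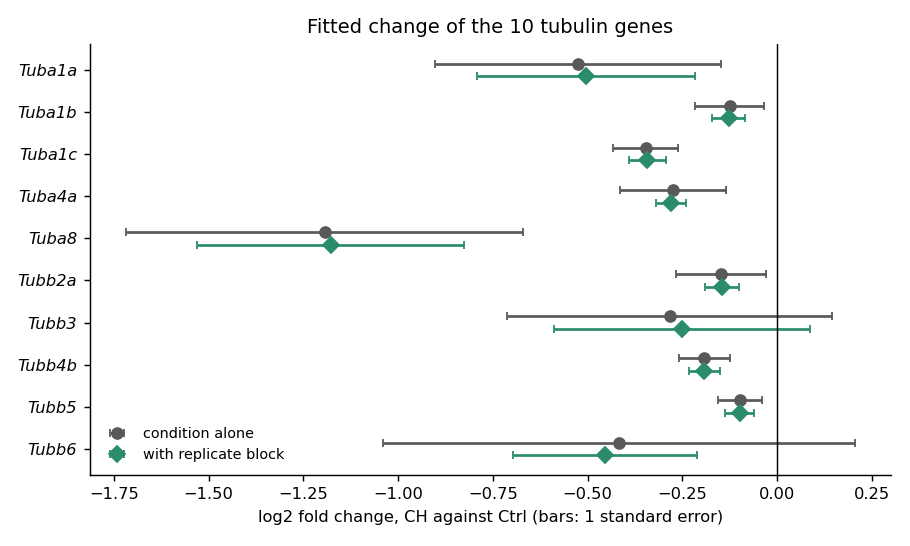
Fitted log2 fold change of CH against Ctrl for each tubulin gene, with bars of 1 standard error, for condition alone (circles) and with the replicate block (diamonds). All 10 estimates lie below 0, and the block leaves the estimates nearly in place and shortens the bars.

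All 10 members were lower on average in CH, where 47.9% of the genes tested were. None passed the threshold with condition alone, where edgeR called 0% of the genes lower and 0.00887% higher, and 2 members (Tuba1c and Tubb4b) had an unadjusted p under 0.05, as 216 genes did that were lower and 81 that were higher. DESeq2 without the block called 28 genes lower and 0 members. With the block, edgeR called Tuba1c, Tuba4a and Tubb4b lower, against 5.2% of the genes tested, and DESeq2 called the same 3 genes, against 2.2%. In CPM the 3 CH samples lay below the 3 Ctrl samples for 3 members (Tuba1c, Tubb4b and Tubb5), against 4.28% of the genes. In FPKM the Tubb5 groups overlapped. CH was lower in all 3 pairs for 8 members, against 20.1%. The members' choice used this contrast, so nothing is read from these counts. The median log2 fold change was -0.28 over the members, -0.35 over the alpha and -0.19 over the beta genes, beside 0.01 over all genes tested. The members' median was -0.13 without Ctrl 3, -0.16 without CH 2, -0.22 without CH 1 and -0.38 without CH 3. Without number 1 the blocked fit lost the call of Tubb4b and gained those of Tuba1a and Tuba8, whereas Tuba1c and Tuba4a kept theirs without each number in turn.

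Near-identical isotypes share sequence, so the split of reads between some of them is uncertain. Reads were single-end and 50 bases long. Of all windows of that length in the GENCODE M21 protein-coding transcripts, 73.8% of those of Tuba1b, 72.9% of those of Tuba1a and 61.0% of those of Tuba1c occurred in another gene, mostly each other and genes with no other name than a Gm number, such as Gm3226. The share was 50.9% for Tubb4b, chiefly with the pseudogene Tubb4b-ps1 (43.6% of windows). It was 49.6% for Tubb2a, of which Tubb2b held most, and at most 0.870% for Tuba4a, Tuba8, Tubb3, Tubb5 and Tubb6. The windows count exact matches only and do not bound how many reads of these 5 genes were divided. Their expected counts were not whole in 6 samples for Tuba4a and Tubb5, 4 for Tubb3, 2 for Tubb6 and 1 for Tuba8. Apart from the alpha and beta tubulin genes, 23 genes shared windows with a member, and 1 of them was in the count table.

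Sums over isotypes do not depend on the split among them. The alpha genes summed to 5175, 4769 and 5311 CPM in Ctrl and 4637, 4386 and 4363 CPM in CH. The beta genes summed to 4263, 4011 and 4177 CPM in Ctrl and 3873, 3744 and 3692 CPM in CH. Neither pair of groups overlapped, with a mean difference of -12.3% for alpha and of -9.17% for beta. The differences were smaller in FPKM (-9.67% and -7.88%) and in CPM without TMM (-10.3% and -7.19%). Tuba1a, Tuba1b and Tuba1c together had 4032, 3643 and 3931 CPM in Ctrl and 3739, 3461 and 3172 CPM in CH, with overlap. The members took 0.931%, 0.893% and 0.915% of all counts in Ctrl and 0.870%, 0.830% and 0.795% in CH. In bulk samples, fewer cells with much tubulin mRNA and less of it per cell cannot be told apart.

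**Figure D4:**
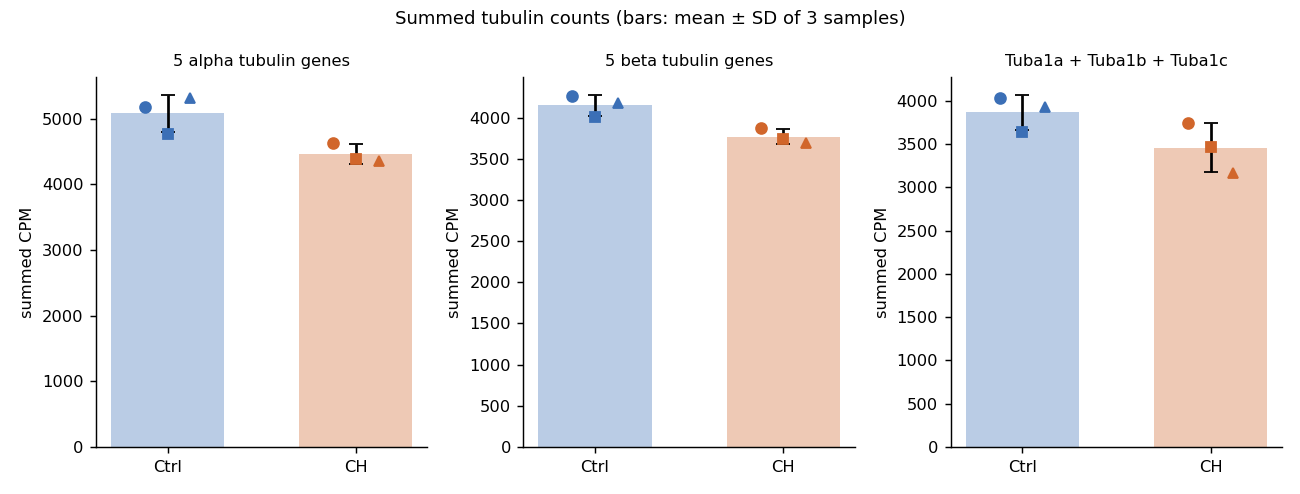
Summed CPM of the 5 alpha genes, the 5 beta genes and the near-identical Tuba1a, Tuba1b and Tuba1c. Bars are means with SD of 3 samples and points are samples. The alpha and beta sums of CH lie below those of Ctrl, and the sums of the 3 near-identical genes overlap.

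Markers of other cells were measured beside tubulin. Of all genes tested, 47.9% were lower on average in CH, and edgeR with the block called 5.2% lower and 1.65% higher. Neutrophil markers were lower on average in CH for 10 of 10 genes, with sums of 70.7, 254 and 677 CPM in Ctrl and 41.4, 111 and 282 CPM in CH, and 9 genes were called lower by edgeR with the block. Macrophage markers were lower for 8 of 9 genes, with sums from 18.3 to 131 CPM in Ctrl and from 13.9 to 61.0 CPM in CH, and 5 were called lower and 1 higher. Mast cell and basophil markers were lower for 5 of 7 genes, with sums from 1.47 to 18.5 CPM in Ctrl and from 0.493 to 2.86 CPM in CH, 2 were called lower and Tpsb2 was at 0. Megakaryocyte markers were lower for 6 of 8 genes (86.0 to 102 CPM in Ctrl and 81.4 to 93.1 CPM in CH), of which 1 was called. Erythroid markers were lower for 11 of 11 genes, with sums of 90845, 85403 and 108429 CPM in Ctrl and 73772, 82775 and 102681 CPM in CH, these groups overlapped, and 2 genes were called lower. Hepatocyte markers were lower on average for 2 of 6 genes and 0 were called, with sums of 113, 94.9 and 274 CPM in Ctrl and 198, 66.0 and 231 CPM in CH. Their part in the tubulin values was not tested.

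Differences between the sample numbers were not used to choose the members, and 5 of the 10 passed this test, near the 46.3% of all genes. Tuba4a averaged 1020, 1025 and 1284 CPM in numbers 1, 2 and 3 (adjusted p of 1.2e-05 in edgeR's quasi-likelihood test). Tubb2a averaged 153, 155 and 187 CPM (edgeR adjusted p of 0.000271) and Tubb6 1.47, 1.48 and 4.05 CPM (edgeR adjusted p of 0.000231). Tuba8 was also highest in number 3, at 0.651, 0.668 and 1.499 CPM (edgeR adjusted p of 0.0296). Tuba1b went the other way, with 3277, 2978 and 2901 CPM (edgeR adjusted p of 0.0251). Tubb5 and Tubb4b missed the threshold, with edgeR adjusted p-values of 0.505 and 0.227, and so did Tuba1c (0.113), Tuba1a (0.244) and Tubb3 (0.310).

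**Figure D5:**
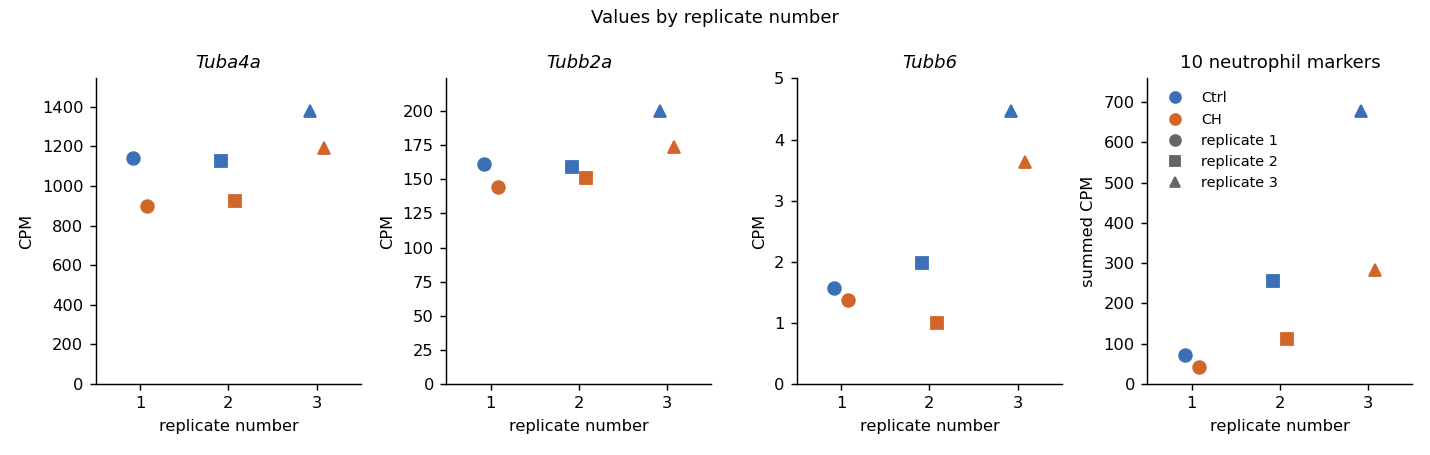
CPM of Tuba4a, Tubb2a and Tubb6, and summed CPM of 10 neutrophil markers, against the replicate number (axes from 0). In both groups each is highest in number 3, where the neutrophil sum is 677 CPM in Ctrl and 282 CPM in CH.

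The patterns of the highest isotypes over the 6 samples were compared with 7244 genes of at least 10 CPM, by Pearson's r of log2 CPM. The points share library, depth and sample number. The CH against Ctrl difference, on which the members were chosen, is also part of every r. The genes most like Tuba1b were Jpt1 (r = 0.994), Rasa3 (r = 0.994) and Anapc4 (r = 0.992). Those most like Tubb4b were Hsp90b1 (r = 0.998), Ifi30 (r = 0.985) and Ski (r = 0.983), and those most like Tubb5 were Ski (r = 0.987), Ggta1 (r = 0.986) and Tagln2 (r = 0.985). An r of at least 0.9 was reached by 77, 42 and 53 genes in turn. The 2 beta isotypes were close to each other (r = 0.977), while Tuba1b followed Tubb4b with r = 0.873 and Tuba4a with r = -0.03.

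Tubb1, the beta tubulin of platelets and megakaryocytes, is not among the members. It had 4.80, 3.17 and 6.90 CPM in Ctrl and 4.53, 3.26 and 3.53 CPM in CH, with overlapping groups. The log2 fold change was -0.39 with a standard error of 0.32, and edgeR's adjusted p was 0.9998 for condition alone and 0.341 with the block. Without Ctrl 3 the log2 fold change was -0.08, and without Ctrl 2 it was -0.63. The other 5 alpha and beta tubulin genes in the table, Tuba3a, Tuba3b, Tubal3, Tubb2b and Tubb4a, did not pass the filter and reached at most 0.55 FPKM in any sample.

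The genes around tubulin gave a median log2 fold change of -0.01. Of 93 listed genes that fold, nucleate, modify or bind tubulin, 79 were tested, of which 42 were lower and 37 higher on average in CH. With condition alone edgeR called 0 of them, and 1 (Ttll13) had an unadjusted p under 0.05. With the block it called 0 lower and 1 higher, Camsap2, which caps microtubule minus ends, where 1.65% of all genes were called higher. Camsap2 had 158, 179 and 167 CPM in Ctrl and 174, 192 and 194 CPM in CH (log2 fold change 0.15, edgeR adjusted p with the block of 0.0365). DESeq2 called none of the 79 with or without the block.

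Gamma tubulin seeds new microtubules within a ring complex. Tubg1, its main gene, had 162, 152 and 126 CPM in Ctrl and 152, 143 and 139 CPM in CH, with a log2 fold change of -0.02. Tubd1 and Tube1, the delta and epsilon tubulins of centrioles, had log2 fold changes of -0.07 and -0.02. Of the 10 ring and centrosome genes 2 were lower and 8 higher on average, with a median log2 fold change of 0.03. Those of smallest unadjusted p were Tubgcp6, a ring subunit (0.12), Nedd1, which targets the ring to the centrosome (-0.12), and Mzt2 (0.13). Mzt2 was 0.24 without Ctrl 1, 0.08 without CH 1 and 0.07 without Ctrl 3.

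New tubulin is folded by prefoldin, the CCT chaperonin and the tubulin cofactors before it can form dimers. The 8 CCT subunits lay between -0.06 and 0.03 on the log2 scale, with Tcp1 at -0.06, Cct3 at -0.05 and Cct2 at 0.03. All 8 differed between the sample numbers, as 46.3% of all genes did, with Cct2 at 514, 460 and 344 CPM in Ctrl and 513, 486 and 350 CPM in CH (edgeR adjusted p of 7.14e-08 between numbers). Of the 7 cofactor genes 3 were lower and 4 higher, with Tbcd at -0.13, Tbca at 0.07 and Tbce at -0.05 on the log2 scale. Of the 6 prefoldin genes 2 were lower and 4 higher, with Vbp1 at -0.08, Pfdn1 at 0.10 and Pfdn6 at 0.05. Pfdn1 was 0.01 without CH 1 and 0.19 without Ctrl 1. Vbp1 was -0.02 without Ctrl 3 and -0.14 without Ctrl 1.

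The autoregulation factor Ttc5 had 14.2, 13.4 and 16.6 CPM in Ctrl and 13.8, 15.3 and 15.7 CPM in CH, a log2 fold change of 0.02 with a standard error of 0.12. Its partner Scaper stood at 0.11 and Cnot11, which links it to the deadenylase, at -0.02. Scaper was 0.04 without CH 1 and 0.14 without Ctrl 2. Of the 17 modifying enzymes tested 8 were lower and 9 higher. Ttll13, a polyglutamylase, was near the limit of detection, with 0.455, 0.297 and 0.311 CPM in Ctrl and 0.690, 0.692 and 1.18 CPM in CH, where 3 counts are 0.15 CPM (log2 fold change 1.25, edgeR adjusted p of 0.9998). Agbl5, a deglutamylase, stood at 0.15 and Svbp, the partner of the vasohibin detyrosinases, at -0.09.

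Among 25 genes of microtubule dynamics and binding, 19 were lower and 6 higher on average (47.9% of all genes were lower), with a median log2 fold change of -0.05. CH was lower in all 3 pairs for 12 of the 25, against 20.1% of all genes, and with the block 0 were called lower. Kif18a, a motor that shortens spindle microtubules, had a log2 fold change of -0.15 (edgeR adjusted p with the block of 0.0917). Camsap3 had at most 0.986 CPM and a log2 fold change of -0.84 (edgeR adjusted p with the block of 0.272). Between the sample numbers, 36 of the 79 pathway genes passed the edgeR test, a share near the 46.3% of all genes.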

How the data were processed

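Total RNA was taken with TRIzol, poly(A) RNA was selected and single-end reads of 50 bases were made on a DNBSEQ instrument. The submitters' processing notes name HISAT2 2.0.4, Bowtie2 2.2.5, RSEM 1.2.12, DESeq2 1.4.5 and build GRCm38.p6. The authors deposited expected counts (estimated counts per gene, of which 27.9% to 29.5% per sample were not whole) and normalized values taken here as FPKM from their ratio to the counts. Expected counts were rounded and tested in edgeR 4.0.16 (filterByExpr, minimum count 10, TMM, robust quasi-likelihood test, Benjamini-Hochberg adjustment over 11277 genes, threshold 0.05), first with condition alone, then blocking on the number. Standard errors come from the F statistic. CPM follow TMM, and FPKM take a pseudocount of 1 in limma 3.58.1. The scripts were tested on simulated data.

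Replicate numbers come from the sample titles. Deviations from group means correlated at 0.73, 0.35 and 0.82 between same-numbered samples, so the numbers were taken to pair the samples. CH 2 correlated as closely with Ctrl 1 (0.35).

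The members and gene lists were chosen with earlier results of these data known. Named genes are the members, the other alpha and beta tubulins, the 3 genes of smallest p in each pathway list, any called there, and the 3 genes most like each of the 3 highest members. Alternatives were DESeq2 1.42.0, other filters, limma, each sample left out, and, added after the data were seen, DESeq2 with the block and the block without each number. Sequences are those of RefSeq (GRCm38.p6). Protein sequences and Stmn4 were not analysed here.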

Additional observations from a re-analysis of the deposited data

How the results depend on the processing

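All 10 members had a log2 fold change below 0 under every setting in which they could be fitted, except Tubb3 (-0.58 to 0.0471 with 1 sample left out, 0.0201 in the block without number 2) and Tubb6 (-1.17 to 0.171 with 1 sample left out), and Tuba8 had no value where at least 10 counts were asked of every sample. Genes called higher and lower in all were 1 and 0 for condition alone, 186 and 586 with the replicate block, 3 and 28 in DESeq2, 41 and 248 in DESeq2 with the block, and 0 to 7 lower with 1 sample left out. In the block without number 1, 2 and 3 they were 118 and 703, 67 and 229, and 210 and 516. Members called lower were 3 with the block and in DESeq2 with the block, and 4, 3 and 3 in the block without number 1, 2 and 3. The members' median was -0.20 in limma on log2(FPKM + 1), -0.38 to -0.13 with 1 sample left out and -0.14 in the block without number 3. The replicate block with summed values gave -0.19 (alpha) and -0.14 (beta), as without it, and 3016 genes differed between numbers in DESeq2 instead of 5220. Filters on low counts left the counts of treatment calls as they were. The cause of these differences was not tested. The 4 low members rest on 8 to 179.8 expected counts a sample, which limits their precision. Pathway genes that were not called and lay near 0 changed sign. In limma these were Tubg1 (0.0144), Tube1 (0.0127), Tbce (0.0177) and Cnot11 (0.0118). With 1 sample left out the log2 fold changes ran over Tubg1 -0.118 to 0.0573, Tubd1 -0.138 to 0.00408, Tube1 -0.141 to 0.0615, Tcp1 -0.176 to 0.0943, Cct3 -0.193 to 0.0928, Cct2 -0.115 to 0.188, Tbca -0.0349 to 0.181, Pfdn6 -0.0161 to 0.118, Ttc5 -0.0383 to 0.116 and Cnot11 -0.0915 to 0.0499. In the block without number 1, Tubg1 gave 0.0249 and Tube1 0.0475, without number 2, Tubg1 gave 0.0214, Tube1 0.00548, Tbca -0.0528, Pfdn6 -0.0418 and Ttc5 -0.0576, and without number 3, Cnot11 gave 0.0153.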
